A study of Mus musculus with 2 samples.

Results

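Among the 44291 genes in the RNA-seq tables of this study, 8 transcription factor genes known as repressors of adipocyte fate were followed: Runx1t1, Zfp521, Klf2, Klf3, Gata2, Gata6, Nr2f2 and Foxo1. They were taken by gene name, and each name matched 1 row. Zfp521 and Runx1t1 were lower after PRP, at 0.581 and 0.532 of their control level. Klf3 and Gata2, at 1.08 and 1.197 of control, did not differ detectably at this depth. Nr2f2 was slightly lower, at 0.881 of control, and Klf2, Gata6 and Foxo1 stayed under 1 FPKM in both libraries.

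The cells were primary fibro-adipogenic progenitors (FAPs), mesenchymal cells of skeletal muscle that can become adipocytes, of WT genotype. The methods of the study name C57BL/6 mice as its animals, sorted hind limb muscle as the source of FAPs and human donors as the source of PRP. One library comes from FAPs treated with platelet-rich plasma (PRP) and the other from FAPs given vehicle as control. The text of the study describes this treatment as exosomes isolated from PRP, and the label PRP is kept here. Per the labels both groups share 1 protocol, a growth medium with 20% FBS and an adipogenic induction medium that adds insulin at 10 μg/ml, dexamethasone at 0.25 μM and IBMX at 0.5 mM. In which of these media, and how long after PRP, the cells were collected is not given in the sources used here. How many mice or cultures stand behind each library is not given in the sources used here. With 1 library per group there is no replicate error, so no p-value is given and each difference is a difference between 2 libraries.

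Adipocyte formation runs through a cascade in which C/EBPβ and C/EBPδ switch on PPARγ and C/EBPα, and progenitors hold this cascade back with transcriptional repressors. ZFP521 binds EBF1 and keeps its relative Zfp423 down, RUNX1T1 interferes with C/EBPβ, and GATA2 binds C/EBP proteins and the Pparg promoter. KLF2 represses the Pparg promoter, KLF3 brings the CtBP corepressors to Cebpa, and COUP-TFII, the product of Nr2f2, is a nuclear receptor that represses adipogenic genes. FOXO1 represses Pparg until insulin signaling through AKT moves it out of the nucleus. Some of these roles depend on stage or isoform: a short RUNX1T1 isoform favors adipogenesis, and gene-level values do not separate isoforms.

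The study names let-7f-5p among the active microRNAs of the exosomes, so its seed was looked up in the 8 genes. The study itself measured Runx1t1 by RT-PCR, as a predicted target, with and without the exosomes. It went on with another gene, and its text describes no result for Runx1t1. The mature mouse sequence, from RefSeq (GRCm38.p6), is shown because the matches in Runx1t1 and Zfp521 are read against it, and capitals mark the seed, bases 2 to 8.
let-7f-5p: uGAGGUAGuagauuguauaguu
The DNA letters that pair with this seed are CTACCTC. They were searched on the sense strand, in the longest annotated 3′UTR that GENCODE M21 (GRCm38) gives each gene.

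A let-7 seed match was present in 2 of the 8 genes, Runx1t1 and Zfp521. The site of Runx1t1 is shown on its sense strand with the match in capitals, as an example of what was searched for, and lies at chr4:13892737-13892765 (GRCm38) on the plus strand.
Runx1t1 let-7 site: aaagtttcactCTACCTCtgacagcatgt
The 3′UTR of Runx1t1 is 3762 bases long. Of its 4 annotated 3′UTRs, 2 hold the let-7 match. The let-7 match of Zfp521 spans bases 1890 to 1896 of a 3′UTR of 1982 bases, near its end, and is present in 1 of the 2 annotated 3′UTRs. Of the 2 matches, the one in Zfp521 is followed by an A, which makes an 8-base match.

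Seed matches of this length are common. Of 10287 expressed genes (mean FPKM 1 or more) that have a 3′UTR, 9.85% held the let-7 match. Among genes with a 3′UTR within 20% of the length of that of Runx1t1, the share was 19.2%, and for the length of Zfp521 it was 12.3%. The 8-base match was held by 3.42% of the 10287 genes. Klf2, Klf3, Gata2, Gata6, Nr2f2 and Foxo1 held no match in this window. Foxo1 has the longest 3′UTR of the 8, with 6240 bases, and among genes of that length 36.4% held the let-7 match. A match of letters does not show binding, and the part of this microRNA in the levels was not tested.

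The levels were compared first. FPKM scale the reads of a gene to its exon length and to the size of the library, so that levels of different genes can be compared. The PRP library held 40120843 assigned reads and the control library 34139741. The low FPKM values are multiples of single reads, which gave the read number of each of the 8 genes. Intervals are exact 95% intervals on reads divided by 2, since mates of a pair appear to be counted separately, and they cover counting error only.

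In the control library the order was Klf3 (5.24 FPKM), Nr2f2 (5.13), Zfp521 (4.47), Runx1t1 (2.42), Gata2 (1.37), Foxo1 (0.612), Klf2 (0.571) and Gata6 (0.225). The Poisson intervals of Klf3 and Nr2f2 overlapped, as did those of Nr2f2 and Zfp521 and those of Foxo1 and Klf2, so these neighbors cannot be ordered. In the PRP library the order was Klf3 (5.67 FPKM), Nr2f2 (4.52), Zfp521 (2.60), Gata2 (1.64), Runx1t1 (1.29), Foxo1 (0.578), Klf2 (0.432) and Gata6 (0.157). Runx1t1 and Gata2 changed places in the order, but their intervals overlapped in the PRP library, as did those of Foxo1 and Klf2. Summed over the 8 genes, the level was 16.9 FPKM after PRP and 20.04 FPKM in control.

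**Figure D1:**
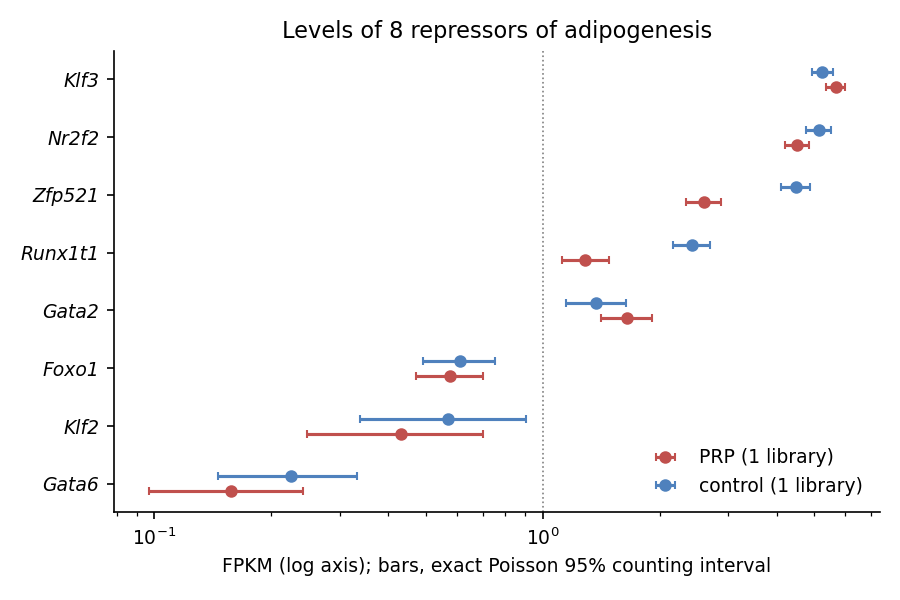
FPKM (log axis) of the 8 repressors in the PRP library (red) and the control library (blue), with exact Poisson 95% intervals of counting error. The intervals of the libraries lie apart for Runx1t1 (1.29 against 2.42 FPKM) and Zfp521 (2.60 against 4.47 FPKM), and the dotted line marks 1 FPKM.

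Of the 8 genes, 6 were lower and 2 higher in the PRP library by the ratio of FPKM, where 47.0% of all genes above 0 in a library were lower. The interval of the ratio excluded 1 for 3 of them, Runx1t1, Zfp521 and Nr2f2, all lower, and included 1 for the other 5. Of the 26406 genes above 0 in a library that had an interval, 13.9% were lower with one that excluded 1. Among expressed genes (mean FPKM 1 or more) with an interval, 52.2% had one that excluded 1, either way. A mean FPKM of 1 or more was reached by 5 of the 8, and 3 of these 5 were lower, where 49.1% of all 13401 genes above that filter were lower. Lower with an interval that excluded 1 were 26.1% of the genes above the filter that had an interval. That share grows with depth and abundance, so it is a background and not an error rate.

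On the scale of log2(FPKM + 1), 0 of the 5 genes changed at least 2-fold, against 2.83% of all genes. At 1.5-fold, which is 0.585 on the log2 scale, Zfp521 passed at -0.61 and Runx1t1 fell just short at -0.58. With no pseudocount, by an alternative chosen after seeing the data, both were at least 1.5-fold lower, as were 7.69% of all genes. Of all genes, 4.57% were at least 1.5-fold lower, and 4.27% of the 6368 genes between 1 and 5 FPKM on average, where both genes lie. The median log2 fold change of the 5 genes was -0.15, against 0.01 for all genes.

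**Figure D2:**
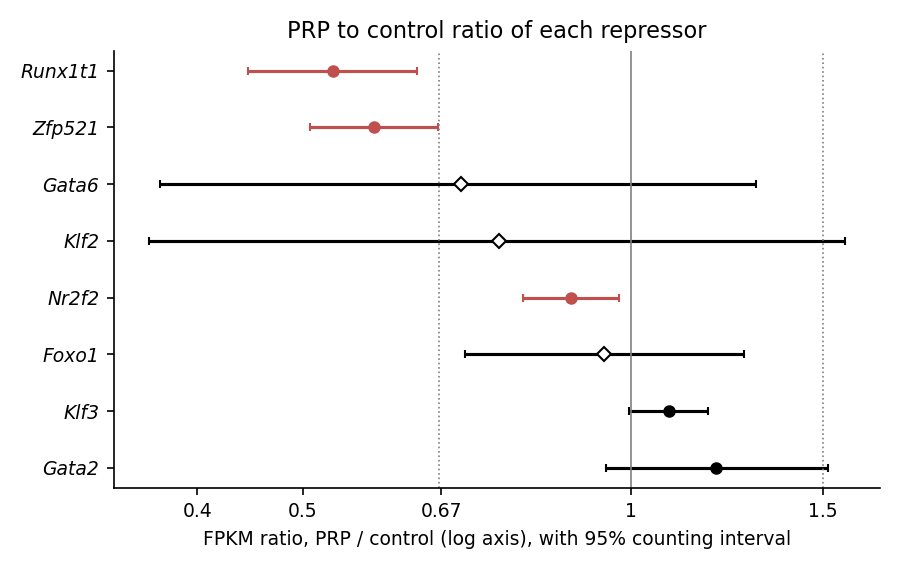
PRP to control ratio of FPKM (log axis) for each repressor, with exact Clopper-Pearson 95% intervals of counting error. Red marks intervals that exclude 1, open diamonds the 3 genes with a mean FPKM under 1, and dotted lines a 1.5-fold difference: Runx1t1 (0.532) and Zfp521 (0.581) lie lowest.

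Zfp521 (ENSMUSG00000024420, chromosome 18, 13687013 to 13972787, minus strand) had 733 reads after PRP and 1074 in control, or 2.60 against 4.47 FPKM. The ratio was 0.581 (95% interval 0.507 to 0.664), or 1.72-fold lower. Of the 13401 genes, 559 (4.17%) had a log2 fold change as low or lower. Zfp423, the relative that ZFP521 holds down and that commits cells to the adipocyte lineage, was at 0.404 against 0.585 FPKM, and its interval of 0.457 to 1.04 included no change. Ebf1, which encodes the partner of ZFP521, was at 7.18 against 6.94 FPKM, and its interval of 0.957 to 1.12 included no change.

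Runx1t1 (ENSMUSG00000006586, chromosome 4, 13743436 to 13893649, plus strand) had 411 and 657 reads, or 1.29 against 2.42 FPKM. The ratio was 0.532 (0.445 to 0.636), a level 1.88-fold lower, and 630 genes (4.70%) had a log2 fold change as low or lower. Its family relative Cbfa2t2 did not differ detectably, with 1.71 against 1.61 FPKM and an interval of 0.896 to 1.27. The other relative, Cbfa2t3, had 4 and 2 reads. Runx1t1 was thus the lower one of the pair in the PRP library and the higher one in the control library.

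RUNX factors and E proteins are partners of the RUNX1T1 family, and the list made of them also held Cbfb, the RUNX subunit gene, and Fto, whose demethylase product affects the splicing of Runx1t1. Of its 6 tested genes 5 were lower, against 49.1% of all genes, with a median log2 fold change of -0.12. The interval excluded 1 for 3 of them (Runx1, Tcf4 and Fto), all lower, against 26.1% of all genes. The E protein gene Tcf4 was at 1.37 against 2.29 FPKM (ratio 0.599, 0.545 to 0.658). Fto was at 4.04 against 5.44 FPKM (ratio 0.743, 0.683 to 0.808).

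Nr2f2 (ENSMUSG00000030551, chromosome 7, 70351944 to 70366735, minus strand) had 1563 and 1510 reads, or 4.52 against 5.13 FPKM, since the PRP library was deeper. The ratio was 0.881 (0.796 to 0.975), and 29.2% of genes had a log2 fold change as low or lower. All 3 genes of the NR2F family were lower. Nr2f1, which encodes COUP-TFI, was at 0.896 against 1.30 FPKM (ratio 0.689, 0.517 to 0.916). Nr2f6 was at 2.73 against 3.01 FPKM with an interval of 0.723 to 1.14, and 54.4% of its exon bases also belong to other genes, which leaves the value uncertain.

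**Figure D3:**
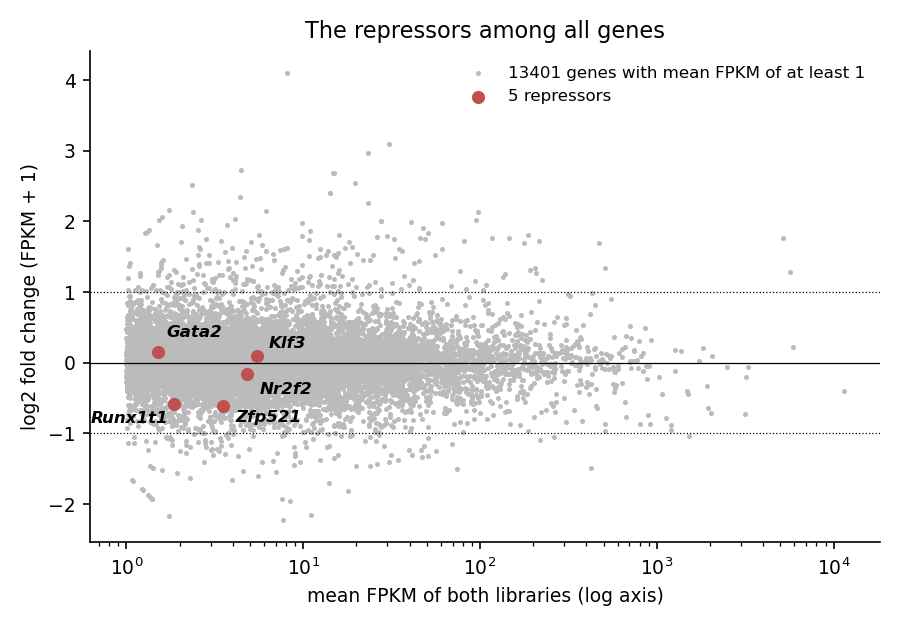
Log2 fold change of FPKM + 1 (PRP against control) against the mean FPKM (log axis) for 13401 genes (grey), with the 5 repressors above the filter in red. All 5 lie inside the dotted lines of a 2-fold difference, with Zfp521 (-0.61) and Runx1t1 (-0.58) lowest.

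The Krüppel-like repressors were not detectably lower. Klf3 (ENSMUSG00000029178, chromosome 5, 64803388 to 64832901, plus strand), the most abundant of the 8, had 2559 and 2011 reads, or 5.67 against 5.24 FPKM. The ratio was 1.08, and its interval of 0.996 to 1.18 included no change, while on reads as counted it ran from 1.02 to 1.15. Klf2 (ENSMUSG00000055148, chromosome 8, 72319033 to 72321656, plus strand) had 32 and 36 reads, or 0.432 against 0.571 FPKM. With so few reads the interval ran from 0.361 to 1.57, so a difference up to that size was not detectable.

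Some other Krüppel-like factors were higher in the PRP library. Of the 9 tested genes of the family, Klf3 included, 7 were higher and 2 lower, where 50.9% of all genes were higher, and the median log2 fold change was 0.10. The interval lay above 1 for 3 of the 9, against 26.1% of all genes, and included 1 for the other 6. At least 1.5-fold higher were 3 of the 9, against 6.15% of all genes. Klf10, which is induced by TGF-β, was at 6.79 against 2.59 FPKM (ratio 2.62, 2.22 to 3.12, log2 fold change 1.12). Klf4, an early activator of Cebpb in adipogenesis, was at 27.4 against 16.2 FPKM (ratio 1.69, 1.55 to 1.83), and Klf6 at 34.4 against 20.9996 FPKM (ratio 1.64, 1.54 to 1.74). Klf5, which promotes adipogenesis downstream of C/EBPβ and C/EBPδ, was low, at 0.786 against 0.237 FPKM, and higher after PRP (ratio 3.32, 2.04 to 5.65). The intervals of Klf2 and Klf3 lay below those of Klf4, Klf6, Klf10 and Klf5 in their ratio, except that the upper end for Klf2 (1.57) passed the lower ends for Klf4 and Klf6.

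**Figure D4:**
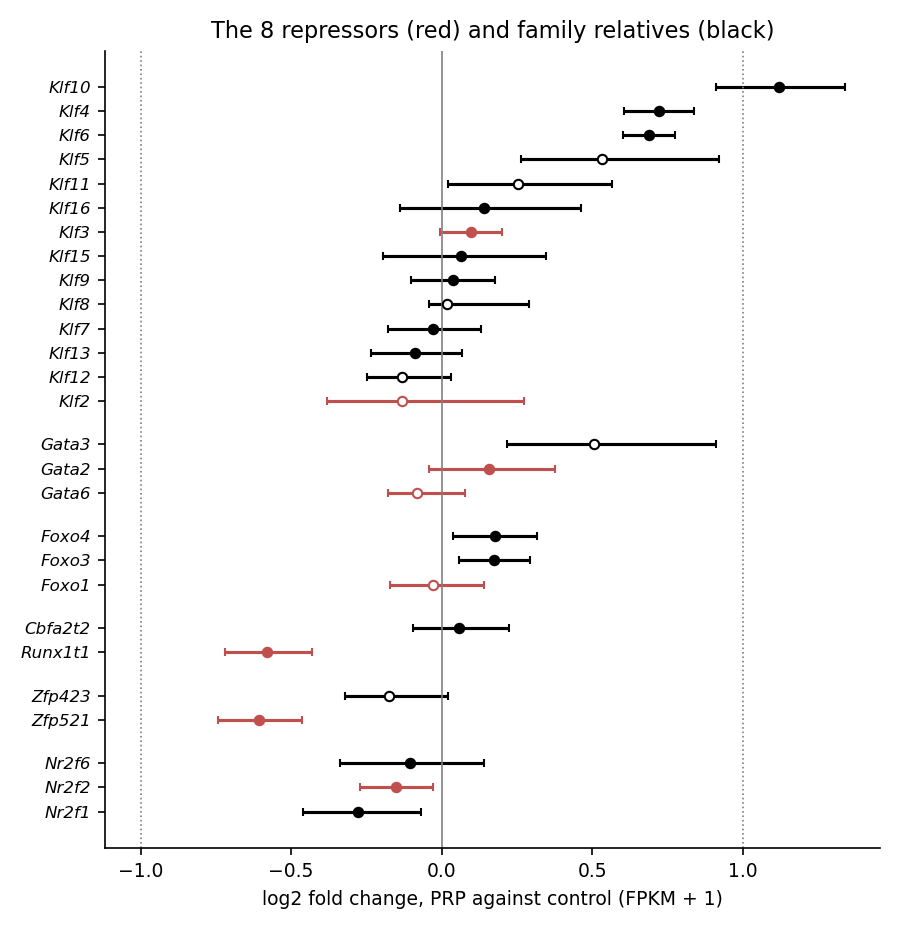
Log2 fold change of FPKM + 1 with its counting interval for the 8 repressors (red) and their family relatives (black) with at least 20 reads in both libraries together; open points have a mean FPKM under 1 and dotted lines mark a 2-fold difference. Klf10 (1.12), Klf4 (0.72) and Klf6 (0.69) lie highest, and Runx1t1 (-0.58) and Zfp521 (-0.61) lowest.

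Gata2 (ENSMUSG00000015053, chromosome 6, 88193891 to 88207032, plus strand) had 356 and 253 reads, or 1.64 against 1.37 FPKM. The ratio was 1.197 with an interval of 0.948 to 1.52, so no difference was detectable, while on reads as counted the interval ran from 1.02 to 1.41. Gata6 (ENSMUSG00000005836, chromosome 18, 11052064 to 11085635, plus strand) had 41 and 50 reads, or 0.157 against 0.225 FPKM, and its interval ran from 0.369 to 1.30. Gata3, the other GATA factor known to repress adipogenesis, had 142 and 45 reads, or 0.890 against 0.331 FPKM (ratio 2.69, 1.65 to 4.53). Gata1 and Gata5 were at 0 in both libraries, and Gata4 had 12 and 2 reads. Zfpm1 and Zfpm2, which encode the GATA cofactors FOG1 and FOG2, were at 8.42 against 8.34 FPKM and 1.03 against 1.15 FPKM, both within counting error.

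Foxo1 (ENSMUSG00000044167, chromosome 3, 52268336 to 52353221, plus strand) had 201 and 181 reads, or 0.578 against 0.612 FPKM. The ratio was 0.945 (0.704 to 1.27). Foxo3 (6.79 against 5.90 FPKM) and Foxo4 (11.8 against 10.4 FPKM) were far more abundant in both libraries and slightly higher in the PRP library, with intervals of 1.05 to 1.26 and 1.03 to 1.27. Foxo1 thus held the lowest level of the 3 in each library, and Foxo6 had 2 and 0 reads.

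FOXO proteins are controlled mainly after translation, so the insulin pathway upstream and known target genes were also compared. Of 11 tested genes of the insulin to FOXO list 7 were lower and 4 higher, with a median log2 fold change of -0.09. Of all genes, 49.1% were lower. The interval excluded 1 for 4 of the list on the lower side and 3 on the higher side, against 26.1% for each. Sirt1, a deacetylase of FOXO1, was at 3.68 against 1.71 FPKM (ratio 2.16, 1.79 to 2.61). Irs2, an insulin receptor substrate and itself a FOXO target, was at 2.69 against 1.62 FPKM (ratio 1.66, 1.38 to 2.01). Lower were Pik3r1, which encodes a regulatory subunit of PI3K (ratio 0.705, 0.667 to 0.745), and Akt2 (0.742, 0.665 to 0.828). Sgk1, a kinase gene of the same list, was higher, at 11.5 against 7.90 FPKM (ratio 1.45, 1.32 to 1.60).

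Of 16 tested FOXO target genes 9 were higher and 7 lower, where 50.9% of all genes were higher, with a median log2 fold change of 0.16. The interval excluded 1 for 8 of them on the higher side and 5 on the lower side, where the background was 26.1% for each side. Gadd45a, a growth arrest gene, was at 54.4 against 24.9 FPKM (ratio 2.18, 2.01 to 2.38) and was the 1 gene of the list past 2-fold on the log2(FPKM + 1) scale. Pdk4, a brake on glucose oxidation, was at 13.3 against 9.24 FPKM (ratio 1.44, 1.30 to 1.60). Lower were Sesn3 (0.715 against 1.77 FPKM, ratio 0.403, log2 fold change -0.69), which was more than 2-fold lower by the ratio alone, and Cdkn1b, a cell cycle inhibitor gene (3.91 against 5.66 FPKM, ratio 0.691). Cdkn1a, another cell cycle inhibitor gene of the list, was higher, at 15.2 against 10.1 FPKM (ratio 1.496, 1.35 to 1.65, log2 fold change 0.54). The targets thus moved both ways. Of the exon bases of Gadd45a, 19.1% also belong to other genes.

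KLF2 lies downstream of ERK5 and MEF2 and has known targets in endothelium. Of 8 tested genes of that list 5 were higher and 3 lower, with a median of 0.08. Of all genes, 50.9% were higher. Thbd, which encodes thrombomodulin and is activated by KLF2 in endothelium, was at 6.60 against 3.86 FPKM (ratio 1.71, 1.47 to 2.00). Vcam1, which KLF2 represses there, was at 5.21 against 7.15 FPKM (ratio 0.728, 0.666 to 0.796). Mapk7, the gene for ERK5, was at 5.94 against 4.56 FPKM (ratio 1.30, 1.14 to 1.498). The MEF2 genes went different ways. Mef2c, with a mean under 1 FPKM, was lower, at 0.647 against 1.11 FPKM (ratio 0.581, 0.484 to 0.696). Mef2a was slightly higher (ratio 1.10, 1.03 to 1.18), and the interval of Mef2d included 1. Edn1, also of that list, was at 3.12 against 3.40 FPKM, with an interval of 0.715 to 1.18. Nos3 and S1pr1, other endothelial targets, had at most 14 reads in a library.

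The corepressors through which several of these factors act were all expressed. Of 20 genes 13 were lower and 7 higher, where 49.1% of all genes were lower, with a median of -0.08. The interval excluded 1 for 10 on the lower side and 3 on the higher side, against 26.1% for each. Ctbp1, a partner of KLF3, was at 9.95 against 11.3 FPKM (ratio 0.882, 0.802 to 0.969), and Ctbp2 at 5.71 against 5.16 FPKM with an interval of 0.989 to 1.24. Fhl2, a cofactor that binds FOXO1, was at 26.9 against 37.3 FPKM (ratio 0.721, 0.663 to 0.785). Chd4, the ATPase of the NuRD complex to which ZFP521 binds, was at 113.1 against 146.9 FPKM (ratio 0.770, 0.754 to 0.785). Sirt1 was the 1 gene of the list at least 1.5-fold away from control on the log2(FPKM + 1) scale.

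A list of 16 other negative regulators of adipogenesis held 11 tested genes, 6 higher and 5 lower, with a median of 0.03. Of all genes, 50.9% were higher. Ddit3, whose product CHOP blocks C/EBP proteins, was at 278.7 against 151.2 FPKM (ratio 1.84, 1.78 to 1.91). A short second entry of the same name, with 105 exon bases inside the gene, was at 571.1 against 322.5 FPKM, and reads can be split between the entries. Trib3, a pseudokinase gene induced by CHOP, was at 7.78 against 4.73 FPKM (ratio 1.64, 1.36 to 1.99). Trib2, a relative that also restrains adipogenesis, was at 3.76 against 6.19 FPKM (ratio 0.608, 0.526 to 0.702).

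The factors that the repressors act on were compared last. Of 16 tested adipogenic transcription factor genes 8 were higher and 8 lower, where 50.9% of all genes were higher, with a median of 0.01. Pparg was at 8.69 against 6.55 FPKM (ratio 1.33, 1.15 to 1.53). The study reports the opposite direction for Pparg mRNA, reduced by the exosomes in replicated RT-PCR. It also reports the PPAR signaling pathway as lower in its transcriptome. Cebpb was at 22.6 against 18.4 FPKM (ratio 1.23, 1.09 to 1.39), where 20.7% of its exon bases also belong to other genes. Cebpa was at 13.5 against 12.2 FPKM with an interval of 0.991 to 1.24. Srebf1, a lipogenic factor, was at 2.76 against 5.08 FPKM (ratio 0.544, 0.471 to 0.629). Zfp467, a zinc finger gene that favors adipogenesis, was at 0.650 against 1.62 FPKM (ratio 0.402, 0.287 to 0.558). Of 6 tested adipocyte genes 4 were higher and 2 lower, where 50.9% of all genes were higher, with a median of 0.05. Cfd was at 2.92 against 2.22 FPKM with an interval of 0.842 to 2.07. The lipid carrier gene Fabp4 was at 40.7 against 33.6 FPKM (ratio 1.21, 1.15 to 1.27), and Lpl, which encodes lipoprotein lipase, at 67.4 against 83.3 FPKM (ratio 0.810, 0.791 to 0.828).

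**Figure D5:**
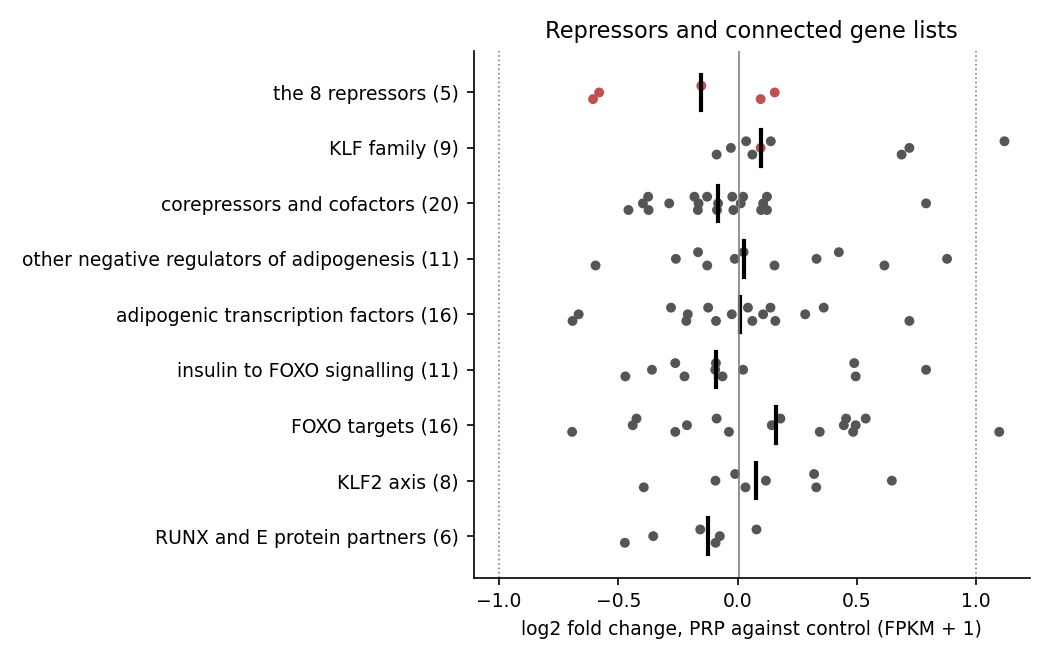
Log2 fold change of FPKM + 1 for the tested genes of each list (points, with their number in brackets and the repressors in red), the median of each list (black bars), the median of all genes (grey line) and a 2-fold difference (dotted lines). The medians of the 9 lists drawn lie between -0.15 for the repressors and 0.16 for FOXO targets.

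The cell type was checked with marker genes. The FAP markers Pdgfra (19.8 against 27.95 FPKM) and Ly6a (59.9 against 66.4 FPKM) were high in both libraries. Pi16 (0.0313 against 0.0598 FPKM) and Col15a1 (0.243 against 0.378 FPKM), also of that list, were low in both. All 7 tested markers of the 9 found were lower in the PRP library, each with an interval that excluded 1, where 26.1% of all genes were. Their summed level, over all 9, was 346.2 FPKM against 510.1 FPKM, with Dpt lowest (ratio 0.374), and their part in the lower Zfp521 and Runx1t1 was not tested. In bulk RNA, fewer cells of a type and less RNA per cell cannot be told apart. Markers of other cell types were also read. The summed level of 10 endothelial markers was 6.61 against 4.32 FPKM, and Cldn5 was at 0. Most of it came from Kdr (4.23 against 1.499 FPKM, ratio 2.82) and Flt1 (1.25 against 1.83 FPKM, ratio 0.685), which went opposite ways. Pecam1 (ratio 3.999, 1.49 to 13.4), Vwf (1.72, 1.02 to 2.97) and Esam (7.66, 1.06 to 335.7), all under 0.2 FPKM, were also higher. The intervals of Cdh5, Tie1, Emcn and Egfl7 included 1. The summed level of 5 mast cell markers was 0.101 against 0.0994 FPKM, and of 10 macrophage markers 11.4 against 11.3 FPKM, with Ptprc at 0.0109 against 0.0192. Within the macrophage sum, Cd68 was higher (4.56 against 2.31 FPKM, ratio 1.98, 1.41 to 2.82) and Lyz2 lower (4.91 against 7.57 FPKM, ratio 0.648, 0.512 to 0.820). Of 6 mural cell markers the sum was 18.8 against 12.4 FPKM, mostly Myh11 (16.7 against 9.86 FPKM, ratio 1.69), and of 5 myogenic markers 2.95 against 3.43 FPKM, with Pax7 and Myog at 0. The 4 lymphatic endothelial markers summed to 201.3 against 140.2 FPKM, of which Pdpn, also a stromal gene, gave all but a small part. Prox1 and Lyve1 were under 0.3 FPKM. At low levels Prox1 (ratio 1.74, 1.05 to 2.96) and Flt4 (1.69, 1.09 to 2.67) were higher, and the interval of Lyve1 included 1. The part of these markers in the levels of the repressors was not tested.

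Genes that overlap the repressors could share their reads, since the strand setting of the counting is not given in the sources used here. The antisense gene Gm20402 shares 674 of the 8665 exon bases of Foxo1 (7.78%) and was at 1.92 against 2.56 FPKM, from 53 and 60 reads. B130024G19Rik shares 7.46% of the exon bases of Nr2f2 and was under 0.2 FPKM, and Gm20033 shares 3.59% of those of Klf3 and was at 2.18 against 1.81 FPKM. 1010001N08Rik shares 1.43% of those of Gata6. Runx1t1, Zfp521, Gata2 and Klf2 share no exon base with an overlapping or neighboring gene in M21.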

How the data were processed

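RNA-seq was performed on 1 PRP and 1 control library of FAPs. Per the labels, total RNA was extracted with TRIzol and a stranded mRNA kit was used. Per the submitters' processing notes and the methods of the study, reads were trimmed with fastp 0.23.4, aligned to mm10 with STAR 2.5.3a and counted with featureCounts. The deposited values are FPKM computed by the authors, and the annotation release and strand setting are not given in the sources used here.

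Of 44291 gene identifiers, 41492 (93.7%) matched GENCODE M21 (GRCm38). With its exon lengths, 26406 of 28160 genes above 0 (93.8%) gave whole reads in both libraries within 0.001 reads. Even read numbers made up 79.3% and 80.3% of genes with up to 8 reads, so reads were divided by 2. Fold changes are log2(FPKM + 1), PRP minus control, for genes whose mean FPKM is 1 or more, and the pseudocount understates the change of low genes. Intervals are exact Clopper-Pearson (ratios) or Poisson (levels) at 95%. No count test was run. Samples were grouped by their titles.

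The repressors and lists were chosen with earlier results of these data known. Named from each list are genes past 2-fold, else the 2 with the largest change, and direct partners of the repressors. Fabp4 was named outside this rule. Klf5, Klf6, Gata3, Nr2f6, Runx1, Cbfb, Trib2, Pik3r1, Akt2, Sgk1, Pdk4, Sesn3, Cdkn1a and Cdkn1b were added after their values were seen. So were Mapk7, Mef2a, Mef2c, Mef2d, Edn1, Nos3, S1pr1, Chd4, Zfp467 and the relatives at or near 0. The search for miR-16 matches is not reported here. Seed matches used complete 3′UTRs of protein-coding transcripts. Alternatives were pseudocounts of 0.1 and 5, filters, rescaling, centring and folds of 1.5 and 4. Python 3.11.15, NumPy 2.4.6, pandas 2.3.3, SciPy 1.17.1 and matplotlib 3.10.9 were used, tested on simulated data.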

Additional observations from a re-analysis of the deposited data

How the results depend on the processing

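No repressor passed 2-fold under any alternative with that fold. At 1.5-fold, 1 of the 5 tested genes passed (Zfp521). The number lower by at least 1.5-fold was 2, with Runx1t1 added, at a pseudocount of 0.1, after both rescalings (all genes to 1 sum, or all but the mitochondrial and the 50 most abundant genes), after centring, and by the ratio with no pseudocount. It was 0 at a pseudocount of 5 and when the filter was raised to 5 FPKM. Over all genes this number was 612, and it was 903 after the first rescaling, 635 after centring and 1030 by the ratio with no pseudocount. It was 968, 994, 205 and 340 at a pseudocount of 0.1, after the second rescaling, at a pseudocount of 5 and at the stricter filter. In the same order of the first 3, the log2 fold change of Runx1t1 was -0.86, -0.82 and -0.24 and that of Zfp521 -0.76, -0.76 and -0.32. The first rescaling gave -0.77 for Runx1t1. Gata6 had -0.34 at a pseudocount of 0.1 and -0.19 and -0.24 after the rescalings, against -0.08. Rescaling multiplies FPKM, so that a pseudocount of 1 weighs less.

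Without a filter 6 of 8 genes were lower. At the filter of 5 FPKM only Klf3 was left, 1 gene higher and 0 lower, so the median turned to 0.10. That filter also gave medians of 0.39 for the Krüppel-like family, 0.30 for the other negative regulators and 0.40 for FOXO targets, over fewer genes. On reads as counted, an alternative chosen after seeing the data like the ratio with no pseudocount, the interval excluded 1 for 5 of the 8 genes in place of 3, adding Klf3 (1.02 to 1.15) and Gata2 (1.02 to 1.41), both higher. With an 8-base match, 1 gene held a let-7 site, as did 3.42% of the expressed genes that have a 3′UTR. Depth limits Klf2 and Gata6 most. No paired analysis was possible because PRP and control are single libraries.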

Other observations

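With 2 libraries a pattern is a pair of levels, and likeness was measured as the distance between log2(FPKM + 1) values over the 2 libraries. Nearest to Zfp521 lay Wee1, a cell cycle kinase gene (2.61 against 4.37 FPKM, distance 0.028), Pltp, a phospholipid transfer protein gene (2.63 against 4.36 FPKM, distance 0.034), and Batf2 (2.58 against 4.34 FPKM, distance 0.036). Nearest to Gata2, the repressor with the highest log2 fold change, lay Epha4 (1.65 against 1.37 FPKM), Gsap (1.64 against 1.38 FPKM) and C1ql3 (1.65 against 1.39 FPKM).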
